A study of Homo sapiens with 35 samples.

Results

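The genes described here are the nuclear genes for subunits of the 5 complexes of oxidative phosphorylation, followed in BE(2)-C, a line grown from a human neuroblastoma with an amplified MYCN gene. They were taken by symbol (NDUF followed by A, B, C, S or V and a number, SDHA to SDHD, CYC1, and names that begin with UQCR, COX4 to COX8 or ATP5, which leaves out assembly factors such as NDUFAF4), and the probe set with the highest mean intensity stood for each. The rule found 72 of the 11940 genes on the array: 30 of complex I, 3 of complex II, 8 of complex III, 13 of complex IV and 18 of complex V. Cells received all-trans retinoic acid (ATRA) at 5 uM, the histone deacetylase inhibitor valproic acid (VPA) at 1 mM, or both agents at these doses, and control cells received the vehicle DMSO. All were the same line in DMEM with serum and were collected after 6 h, 24 h or 72 h. Each of the 12 groups held 3 arrays, apart from DMSO at 72 h with 2. The labels speak of triplicates and not of separate cultures or passages, so every p-value measures the spread between these samples, which may be technical.

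The respiratory chain passes electrons from NADH (complex I) or succinate (complex II) through ubiquinone to complex III, cytochrome c and complex IV, where oxygen is reduced. Complexes I, III and IV move protons across the inner mitochondrial membrane, and complex V, the ATP synthase, uses the gradient to make ATP. Most subunits are encoded in the nucleus and imported, while a small core set is encoded by mitochondrial DNA and is not among these genes. Neuroblastoma cells given retinoic acid are known to stop dividing and grow neurites.

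Most of the 7 neuroblastoma markers measured were bright, with a mean intensity of 6206 for MYCN, 2741 for GATA3 and 2050 for PHOX2A. ISL1 was at 1125, DBH at 1031 and TH at 179.6. HAND2, at 32.2, lay within the range given next for markers of other cell types. Schwann and glial, epithelial and haematopoietic markers had mean intensities over all arrays of 17.8 (PTPRC) to 41.8 (KRT18). The summed level of the 4 epithelial ones was higher with both agents at 72 h, with 1 of 4 above background, as given with those results. The fibroblast genes DCN and LUM were at 1068 and 470, COL3A1 at 93.6, and COL1A1 and COL1A2 at 39.1 and 23.1. Median intensity per array ran from 43.63 to 58.89, and the lowest value belonged to DMSO 24 h replicate 1, which stood apart. No 2 arrays held identical values. The log2 ratio of 3' over 5' control probe sets for GAPDH and ACTB reflects how intact and how fully labelled the RNA was. It was not the same in all groups and is given beside the comparisons concerned.

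Respiratory chain transcripts were among the brightest on the arrays. Of the 72 genes, 69 lay among the 3980 brightest genes (mean intensity of at least 296.6), and their median percentile by mean intensity was 96.4. Over all arrays, the median gene of complex I had a mean intensity of 2249, against 886 in complex II, 2999 in complex III, 4518 in complex IV and 4453 in complex V. Levels of different probe sets are not comparable as amounts of transcript, since each has its own hybridisation. ATP5F1E, the epsilon subunit of the ATP synthase, was the brightest at 10162. At the other end stood COX7A1 and COX6A2, the heart and skeletal muscle forms of 2 complex IV subunits, and ATP5MC2P1, a pseudogene of a c-ring gene. These 3 had mean intensities under 23.6, the highest lower quartile of any array, so they are not shown to be above background. In contrast, COX6A1 and COX7A2, the forms found in most tissues, were both bright, with mean intensities of 8235 for COX6A1 and 3449 for COX7A2.

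Within each gene the 12 groups were close. The highest group mean was 1.34 times the lowest for the median gene, the ratio was under 1.5 for 56 genes, and it reached 2 for 4 genes. These 4 were CYC1 (2.92), NDUFA10 (2.38), ATP5MC1 (2.25) and SDHD (2.09). CYC1 is cytochrome c1, the haem subunit of complex III that hands electrons to cytochrome c. NDUFA10 is an accessory subunit of complex I, ATP5MC1 is 1 of the genes for the c-ring of the ATP synthase rotor, and SDHD is a membrane anchor of complex II.

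**Figure D1:**
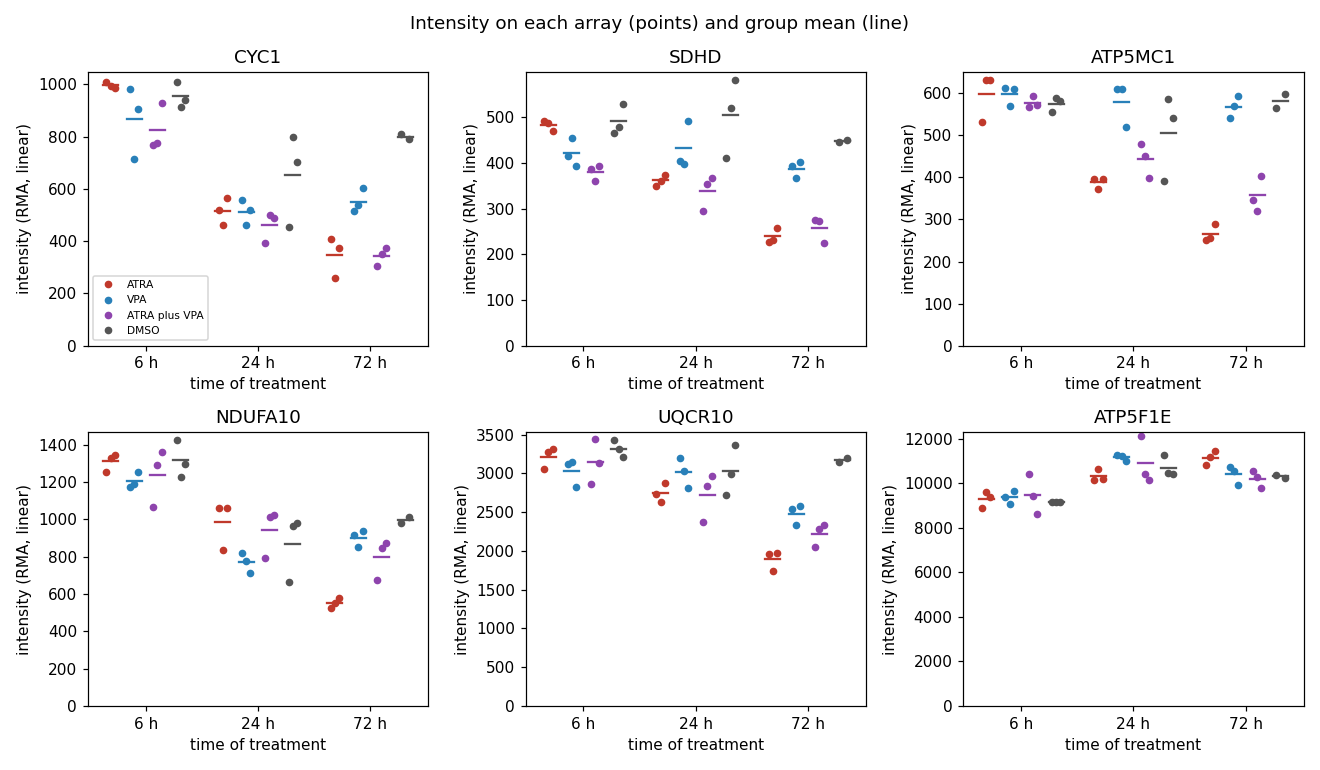
Intensity (linear scale, starting at 0) of 6 genes on each array (points) with the group mean (line), for ATRA, VPA, ATRA plus VPA and DMSO at 6 h, 24 h and 72 h. The 3 ATRA arrays at 72 h lie below both DMSO arrays for CYC1, SDHD, ATP5MC1, NDUFA10 and UQCR10, and above both for ATP5F1E.

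At 72 h some respiratory chain transcripts of each of the 5 complexes were lower with ATRA than with DMSO. CYC1 fell most, by 1.23 on the log2 scale, a 2.35-fold lower level, and ATP5MC1, SDHD, NDUFA10 and UQCR10 followed. In all, 41 of 72 genes were lower and 0 higher than in DMSO (limma, Benjamini-Hochberg adjusted p under 0.05). Of all 11940 genes, 20.2% were lower and 10.7% higher in this comparison. Of the 3980 brightest genes, 44.2% were lower and 10.4% higher. The median log2 change was -0.27 over the 72 genes, against 0.00 over all genes and -0.23 over the 3980 brightest. The shift of the group as a whole was therefore close to that of other bright genes, and what the genes differ in is described below. In extracts of whole cultures, less RNA per cell and fewer cells of a kind cannot be told apart, and array values are relative to the total.

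**Figure D2:**
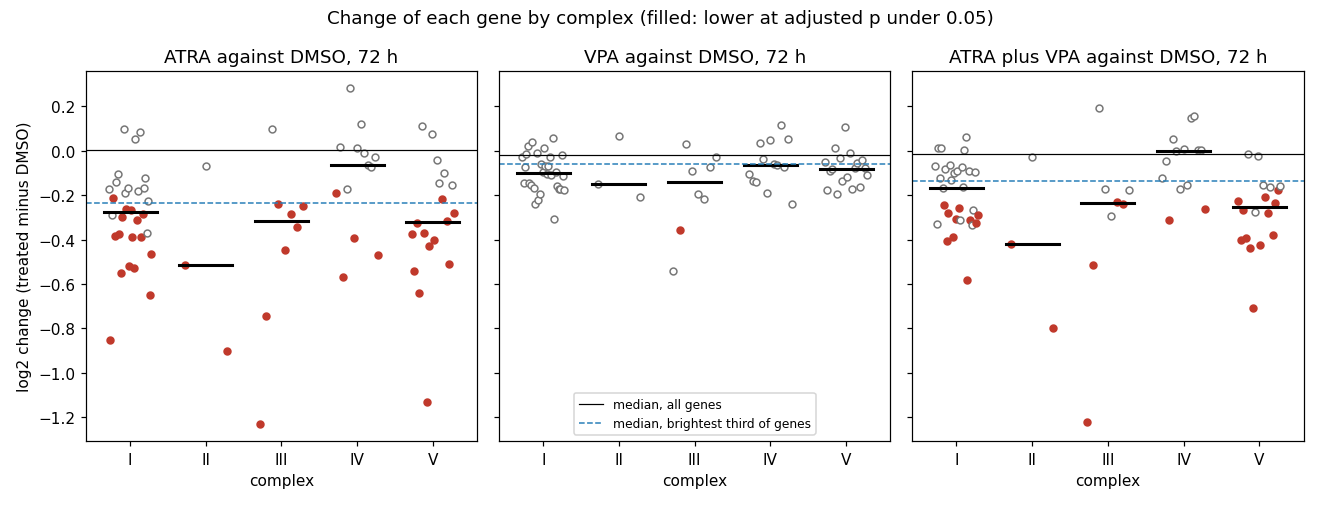
Log2 change against DMSO at 72 h of each respiratory chain gene by complex, for ATRA, VPA and ATRA plus VPA. Filled points passed adjusted p under 0.05, all of them lower, the black bar is the median of a complex, and the lines give the medians of all genes and of the 3980 brightest (-0.23 for ATRA, -0.06 for VPA and -0.14 for ATRA plus VPA).

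Complex I takes electrons from NADH through a peripheral arm into a membrane arm. With ATRA at 72 h, 16 of its 30 genes fell and 0 rose, with a median change of -0.28. NDUFA10 had intensities of 525.7, 552.1 and 578.1 in ATRA cells, against 981.1 and 1011.6 in DMSO cells. The groups were well separated, and the change was -0.85 ± 0.14 (SE, adjusted p = 2.7e-05). NDUFV1, the core subunit that binds NADH and carries the flavin, had 1413.1, 1315.8 and 1426.6 with ATRA and 2153.1 and 2193.2 with DMSO. The groups did not overlap, and the change was -0.65 ± 0.10 (adjusted p = 5.9e-06). NDUFA8 and NDUFB4, accessory subunits of the membrane arm, fell by 0.55 and 0.52.

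The core subunits, conserved from bacteria, did not move as 1 block. Of the 6 core genes measured, NDUFV1, NDUFV2 and NDUFS3 fell (NDUFS3 not after a second quantile normalization, which sets all arrays to 1 distribution, adjusted p = 0.083), while NDUFS7 (-0.37, adjusted p = 0.077), NDUFS8 (-0.23, adjusted p = 0.11) and NDUFS1 (0.09, adjusted p = 0.40) did not pass. NDUFS1, the largest subunit of the NADH-oxidising module, had 1010.6, 1006.3 and 954.0 with ATRA, against 957.5 and 908.5 with DMSO, and the groups overlapped. By module, 5 of 8 genes of the NADH-oxidising module fell, 1 of 4 of the ubiquinone-reducing module and 9 of 17 of the membrane arm. NDUFA9, which lies at the joint of the arms and is often placed with the ubiquinone-reducing module, was in none of these lists and fell by 0.30 ± 0.08 (adjusted p = 0.0059). Differences between modules were not tested.

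Complex II, the succinate dehydrogenase, is shared with the citric acid cycle. SDHD had 227.8, 232.0 and 258.2 with ATRA at 72 h, against 445.5 and 450.0 with DMSO. The groups were well apart, and SDHD fell by 0.90 ± 0.12 (adjusted p = 7.5e-07), a 1.87-fold lower level. Its other probe set lay near background, with a mean intensity of 19.4, and averaging both brings the change to -0.39. SDHA, the flavoprotein that oxidises succinate, fell by 0.51 ± 0.11 (adjusted p = 0.00034). SDHC, the other membrane anchor, did not pass by its brightest probe set (-0.07, adjusted p = 0.67), but its 3 other probe sets were lower, at -0.34, -0.37 and -1.37 (limma over all probe sets, adjusted p = 0.034, 0.021 and 0.0018).

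Complex III had falls in 7 of 8 genes, with a median of -0.31, and in 3 after a second quantile normalization. CYC1 had 407.3, 259.7 and 372.1 with ATRA at 72 h and 810.0 and 789.1 with DMSO. All ATRA arrays lay far below both DMSO arrays, and the change was -1.23 ± 0.18 (adjusted p = 3.5e-06). UQCR10, a small subunit beside cytochrome c1, had 1963.8, 1743.3 and 1969.8 with ATRA, against 3140.0 and 3197.0 with DMSO. These groups did not overlap either, and UQCR10 fell by 0.75 ± 0.10 (adjusted p = 1.2e-06). The core proteins UQCRC1 and UQCRC2 fell by 0.45 and 0.29, and on that scale neither passed (-0.24, adjusted p = 0.067, and -0.13, adjusted p = 0.23). UQCR11 was the exception, with 4220.9, 3463.4 and 4352.7 with ATRA against 3789.0 and 3683.6 with DMSO, which overlapped (0.10, adjusted p = 0.49).

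Complex IV, cytochrome c oxidase, held 4 falls among 13 genes, and its median change was -0.07. COX5B had 1195.1, 1119.2 and 1297.2 with ATRA at 72 h, against 1769.8 and 1798.5 with DMSO. The arrays did not overlap, and COX5B fell by 0.57 ± 0.09 (adjusted p = 1.1e-05). COX8A, COX6B1 and COX4I1 fell by 0.47, 0.39 and 0.19, but after a second quantile normalization COX6B1 (-0.22, adjusted p = 0.068) and COX4I1 (-0.01, adjusted p = 0.93) did not pass. COX5A, the partner of COX5B in the matrix-facing part of the enzyme, was at 0.02 ± 0.07 (adjusted p = 0.88), and COX6C at 0.01 ± 0.07 (adjusted p = 0.91). COX7A2L, which helps to join complexes III and IV, was at -0.07 (adjusted p = 0.60). COX6A1 (-0.17, adjusted p = 0.089), COX7A2 (-0.01, adjusted p = 0.94), COX7B (-0.07, adjusted p = 0.46) and the dim muscle forms COX6A2 (0.28, adjusted p = 0.13) and COX7A1 (0.12, adjusted p = 0.50) did not pass. COX7C did not pass by its brightest probe set (-0.03, adjusted p = 0.81). Its other probe sets were lower, at -0.38 and -0.19 (limma over all probe sets, adjusted p = 0.03 and 0.034). Whether complex IV differed from the others was not tested.

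Complex V had 12 falls among 18 genes, with a median of -0.32. ATP5MC1 had 252.1, 256.9 and 288.3 with ATRA at 72 h, against 565.5 and 597.8 with DMSO. The groups were far apart, and ATP5MC1 fell by 1.13 ± 0.12 (adjusted p = 2.7e-08), a 2.19-fold lower level. In humans 3 genes, ATP5MC1, ATP5MC2 and ATP5MC3, encode the same mature c subunit with different import sequences. ATP5MC3 fell by 0.40 ± 0.07 (adjusted p = 6.4e-05) and ATP5MC2 by 0.43 ± 0.14 (adjusted p = 0.023). The call of ATP5MC2 was lost with the 3'/5' ratio as covariate (-0.12, adjusted p = 0.54) and after a second quantile normalization (-0.24, adjusted p = 0.18). Of 5 genes of the catalytic F1 head and its stalk, 4 fell, including the alpha and beta subunits ATP5F1A (-0.38) and ATP5F1B (-0.54). ATP5F1E, the fifth, had 10805.8, 11175.0 and 11420.8 with ATRA and 10382.8 and 10212.8 with DMSO. Its ATRA arrays all lay above the DMSO arrays, with no call (0.11 ± 0.08, adjusted p = 0.31).

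Every ATRA array lay below every DMSO array for 55 of the 72 genes at 72 h, as it did for 31.2% of all genes. The 3'/5' ratio of the control probe sets differed as well. Its log2 mean was 1.82 ± 0.17 (SD, n = 3) in ATRA cells and 1.06 ± 0.17 (n = 2) in DMSO cells at 72 h. With that ratio as a covariate, 38 genes were lower, 36 of them among the 41. The median change of the 72 genes was then -0.30, against -0.27 without it, and 36.6% of the 3980 brightest genes were lower. The arrays' upper quartiles were 289.7 to 318.9 with ATRA and 331.3 to 333.3 with DMSO. After the second quantile normalization 19 genes were lower, all among the 41, and 3 were higher (ATP5F1E by 0.31, NDUFS1 and UQCR11 by 0.27 each). On that scale, 27.1% of the 3980 brightest was lower, and the median of the 72 genes was -0.11. The medians of complexes I, II, III and V stayed below 0 at -0.11, -0.33, -0.16 and -0.13, while that of complex IV turned to 0.10. By complex from I to V, 6 of 30, 2 of 3, 3 of 8, 2 of 13 and 6 of 18 genes were lower on that scale, so the order of the complexes by share depends on the scaling. CYC1 (-1.07), ATP5MC1 (-0.98), SDHD (-0.77), NDUFA10 (-0.68) and UQCR10 (-0.58) were still called lower. Without the second DMSO array at 72 h, 27 genes were lower in place of 41, and fitted on the 5 arrays compared alone, 26. The summed level of 7 neuroblastoma markers ran from 10769.4 to 11323.4 in ATRA cells, against 14639.8 to 14776.8 in DMSO cells, and that of 5 fibroblast markers from 1131.4 to 1171.2, against 1362.8 to 1366.1. The part of these shifts and of the 3'/5' ratio in the result was not tested beyond the covariate.

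**Figure D3:**
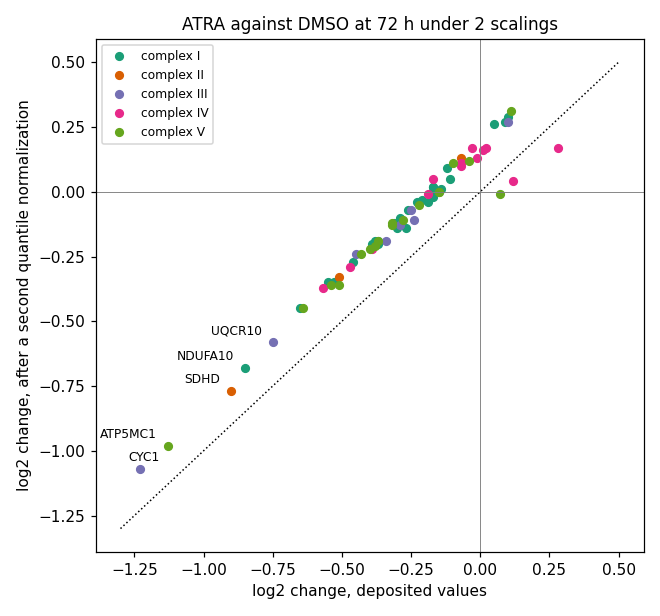
Log2 change with ATRA against DMSO at 72 h for each gene in the deposited values (horizontal) and after a second quantile normalization (vertical), by complex; the dotted line marks equal values. Nearly all points lie above the line, so their changes are less negative, and CYC1 (-1.23 and -1.07) stays at the low end on both axes.

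Where a gene had further probe sets, these can be set beside the brightest. Among the 41 genes that fell with ATRA at 72 h, 11 had another probe set above background, 20 probe sets in all. Of these, 18 had a change below 0, 10 were called lower and 0 higher. Some genes without a call by their brightest probe set fell by another: NDUFA6 by 0.60, NDUFB8 by 0.51 and NDUFS8 by 0.66. SDHC and COX7C did so too, as given above. Of the 72 brightest probe sets, 33 end in _s_at and 6 in _x_at, which marks probes that can match several transcripts, and 42 genes have at least 1 named pseudogene, so part of their signal is uncertain.

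The promoters of 4 genes that fell with ATRA at 72 h are printed, to show the sequence upstream of SDHD and NDUFB4, which hold the core NRF1 motif, of COX5B, which holds an ETS motif, and of ATP5MC1, which holds neither. NRF1 (nuclear respiratory factor 1) and ETS proteins such as GABP are known regulators of nuclear genes for mitochondria. Each line gives the 250 bases before the RefSeq start on build GRCh38.p14, plus strand, with motif matches in capitals: SDHD at chr11:112086623-112086872, NDUFB4 at chr3:120596086-120596335, COX5B at chr2:97645812-97646061 and ATP5MC1 at chr17:48892537-48892786.
SDHD: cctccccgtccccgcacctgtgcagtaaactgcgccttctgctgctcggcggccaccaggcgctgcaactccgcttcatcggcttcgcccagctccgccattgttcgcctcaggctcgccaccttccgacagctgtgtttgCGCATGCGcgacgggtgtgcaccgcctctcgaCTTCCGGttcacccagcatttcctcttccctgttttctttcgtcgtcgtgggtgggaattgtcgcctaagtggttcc
NDUFB4: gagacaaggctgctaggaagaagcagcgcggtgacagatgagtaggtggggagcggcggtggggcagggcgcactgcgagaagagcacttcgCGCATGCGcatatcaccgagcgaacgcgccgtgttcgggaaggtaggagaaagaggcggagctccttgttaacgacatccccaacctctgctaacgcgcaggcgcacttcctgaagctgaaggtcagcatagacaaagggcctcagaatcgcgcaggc
COX5B: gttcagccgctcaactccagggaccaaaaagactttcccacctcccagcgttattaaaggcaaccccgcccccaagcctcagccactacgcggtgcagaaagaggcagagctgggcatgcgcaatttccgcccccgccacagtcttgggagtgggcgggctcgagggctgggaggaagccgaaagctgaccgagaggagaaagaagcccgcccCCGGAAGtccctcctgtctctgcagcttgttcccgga
ATP5MC1: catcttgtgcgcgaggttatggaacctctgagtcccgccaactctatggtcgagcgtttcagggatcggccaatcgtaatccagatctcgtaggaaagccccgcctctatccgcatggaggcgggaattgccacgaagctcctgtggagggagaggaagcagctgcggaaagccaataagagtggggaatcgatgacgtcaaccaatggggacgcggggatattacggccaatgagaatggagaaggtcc
The NRF1 motif CGCATGCG starts 109 bases before the start of SDHD and 158 before that of NDUFB4. The ETS motif, CCGGAAG on either strand, starts 77 bases before that of SDHD and 37 before that of COX5B. A window of 300 bases, from 250 before to 50 after the start, was at hand for 59 of the 72 genes. CGCATGCG lay in 10 of these windows (16.9%), against 2.19% of 27305 windows of all genes. By response to ATRA at 72 h, 5 belonged to the 35 genes with a window that fell and 5 to the 24 that did not pass. A form 1 base longer on each side, searched first, lay in 4 windows (6.78%, against 1.36%), all of genes that fell, a split that the core motif did not show. The longer form with 2 free bases at its centre lay in 13 windows (22%, against 8.78%), 10 of fallen genes and 3 of the others. CCGGAAG lay in 18 windows (30.5%, against 10.7%), 11 of fallen genes and 7 of the others. The YY1 motif AAGATGGCG lay in 7 (11.9%, against 1.85%), 4 of fallen genes and 3 of the others. Both strands were searched, the forms of the NRF1 motif overlap, no test was run, and a match is a run of letters, not a shown binding site.

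At 24 h the ATRA change was small and already held SDHD. In all, 5 genes were lower and 0 higher, against 6.03% of all genes lower and 12.5% higher, and the median change was -0.05. SDHD had 350.4, 360.8 and 373.8 with ATRA at 24 h, against 411.6, 520.4 and 581.5 with DMSO. The groups did not overlap, and SDHD fell by 0.47 ± 0.11 (adjusted p = 0.0018). ATP5IF1, the protein that keeps the ATP synthase from running backwards, had 563.4, 561.4 and 581.8 with ATRA and 725.2, 769.0 and 694.5 with DMSO. It fell by 0.36 ± 0.08 without overlap (adjusted p = 0.00081). ATP5MC1 had 397.4, 373.2 and 397.2 with ATRA, against 390.9, 586.0 and 542.1 with DMSO, where the lowest value is that of the array that stands apart. It fell by 0.36 ± 0.11 (adjusted p = 0.020), and by 0.53 without that array. NDUFB5 fell by 0.19. ATP5F1C fell by 0.21, and its other bright probe sets were at -0.14 and -0.19. By a probe set not ending in _x_at or _s_at, with a mean intensity of 167, its change was 0.24. Its probe sets therefore do not all give the same direction. Fitted on only the arrays compared, each treatment at 24 h had 0 calls among the 72 genes.

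The later change was tested directly, as the ATRA effect at 72 h minus that at 24 h. For 29 of 72 genes it was more negative at 72 h and for 0 less negative, against 15.1% and 3.87% of all genes. Of the 3980 brightest genes, 32.1% were more negative and 2.11% less negative. Of the 29, 28 were among the 41 that fell at 72 h. That overlap is partly built in, since both tests use the same arrays at 72 h. NDUFA10 differed most, by -1.05 ± 0.19 (adjusted p = 0.00057). Its change at 24 h had been 0.19 ± 0.13 (adjusted p = 0.33), with 1062.7, 835.7 and 1061.9 in ATRA cells and 664.1, 964.9 and 982.1 in DMSO cells. CYC1 differed by -0.93 ± 0.24 (adjusted p = 0.0083) and ATP5MC1 by -0.77 ± 0.16 (adjusted p = 0.0022). SDHD differed by -0.44 ± 0.16 (adjusted p = 0.052) and ATP5IF1 by -0.01 ± 0.11 (adjusted p = 0.96, 95% interval -0.24 to 0.22). The 29 became 14 when DMSO 24 h replicate 1 was left out, 11 when DMSO 72 h replicate 2 was, 10 when the fit held the 3'/5' ratio and 1 when fitted on only the arrays compared. After a second quantile normalization it was 7 more negative and 3 less negative. With ATRA plus VPA, 6 genes had a more negative effect at 72 h than at 24 h and 0 a less negative one. The shares were 4.36% and 3% of all genes, and 9.6% and 3.87% of the 3980 brightest. ATP5MC1 differed by -0.53 ± 0.16 (adjusted p = 0.044), NDUFS5, an accessory subunit of complex I, by -0.48 ± 0.11 (adjusted p = 0.0060) and ATP5MC3 by -0.48 ± 0.10 (adjusted p = 0.0016). These 6 became 2 when DMSO 72 h replicate 2 was left out, 3 without DMSO 72 h replicate 1 or ATRA plus VPA 24 h replicate 2, 14 without DMSO 24 h replicate 3, and 0 when fitted on only the arrays compared. ATP5MC1 lost its call without DMSO 24 h replicate 1 (-0.36, adjusted p = 0.15).

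**Figure D4:**
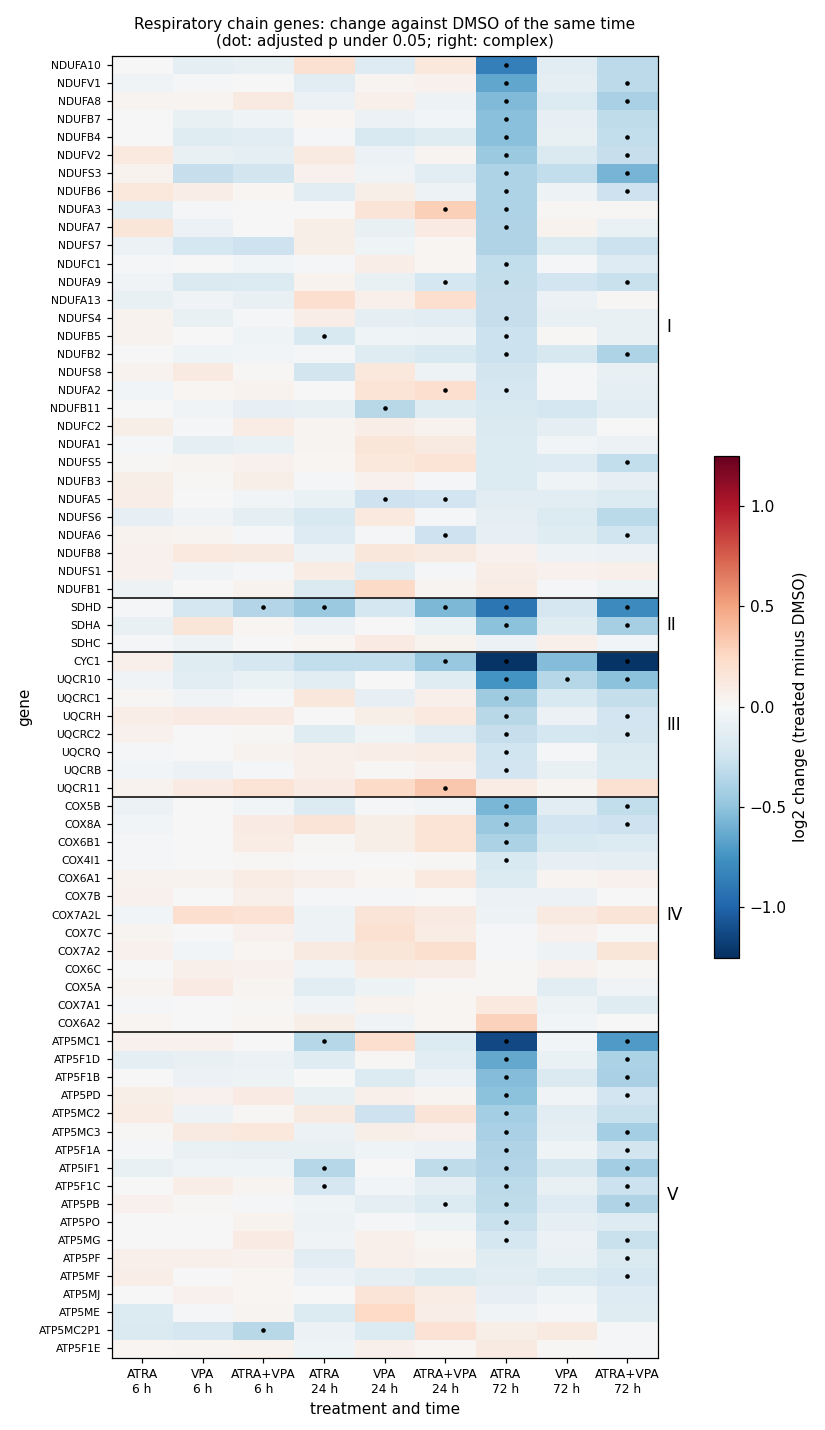
Log2 change against DMSO of the same time for the 72 genes (rows, by complex and by their ATRA change at 72 h) in the 9 treatment and time groups (columns); blue is lower, red is higher and a dot marks adjusted p under 0.05. Dots gather in the columns for ATRA (41) and ATRA plus VPA (30) at 72 h.

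VPA alone left most of these transcripts without a call. At 24 h, 2 genes were lower and 0 higher, against 2.49% and 9.66% of all genes. These were the complex I accessory subunits NDUFB11, with 3090.1, 3117.1 and 2728.9 in VPA cells and 3582.9, 4003.5 and 3739.3 in DMSO cells, and NDUFA5, with 3003.1, 2881.5 and 2982.5 against 3553.7, 3667.1 and 3371.6. Neither overlapped DMSO, and they fell by 0.34 ± 0.07 (adjusted p = 0.0021) and 0.26 ± 0.07 (adjusted p = 0.012). The log2 3'/5' ratio was 1.60 ± 0.63 with VPA at 24 h and 1.05 ± 0.26 with DMSO (SD, n = 3 each). Without DMSO 24 h replicate 1, 5 genes were lower.

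At 72 h, VPA lowered 1 gene and raised 0, against 2.15% and 4.51% of all genes. UQCR10 had 2533.8, 2330.0 and 2576.5 with VPA, against 3140.0 and 3197.0 with DMSO, and fell by 0.35 ± 0.10 without overlap (adjusted p = 0.028). The call was lost without either DMSO array (adjusted p = 0.15 without the first and 0.21 without the second) and without VPA replicate 1 (0.053) or 2 (0.12). CYC1 had 513.4, 537.9 and 601.5 with VPA and 810.0 and 789.1 with DMSO. The groups did not overlap, yet CYC1 did not pass (-0.54 ± 0.18, adjusted p = 0.068, 95% interval -0.90 to -0.17). For 38 of the 72 genes every VPA array lay below both DMSO arrays, as for 22.9% of all genes, and the median change was -0.09. The VPA effect at 72 h differed from that at 24 h for 0 genes by limma after adjustment, against 0.544% of all genes. At an unadjusted p under 0.05 it differed for 4, a count with no share of all genes beside it.

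Cells given ATRA plus VPA showed falls at 72 h in complexes I, II, III and V and 2 in complex IV. In all, 30 genes were lower and 0 higher than in DMSO, against 16.6% and 14.9% of all genes and 35.1% lower among the 3980 brightest. The median change was -0.18, and -0.14 among the 3980 brightest. By complex, 10 of 30, 2 of 3, 4 of 8, 2 of 13 and 12 of 18 genes fell. CYC1 had 305.7, 349.1 and 374.3 with both agents, against 810.0 and 789.1 with DMSO, and fell by 1.22 ± 0.18 without overlap (adjusted p = 2.5e-06). SDHD had 275.9, 272.1 and 225.7, against 445.5 and 450.0, and fell by 0.80 ± 0.12 (adjusted p = 3.2e-06). ATP5MC1 had 346.8, 320.6 and 404.6, against 565.5 and 597.8, and fell by 0.71 ± 0.12 (adjusted p = 3.2e-05). NDUFS3, a core subunit of complex I near the site of ubiquinone reduction, fell by 0.58 ± 0.12 (adjusted p = 0.00019), with 615.5, 735.0 and 690.0 against 1013.2 and 1021.5.

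The summed fibroblast markers were at 1754.8 to 1778.4 with both agents at 72 h, 2284.9 to 2476.3 with VPA and 1362.8 to 1366.1 with DMSO. The 4 epithelial markers summed to 183.6 to 221.1 with both agents, against 96.3 to 110.5 with DMSO, with 1 of 4 above background with both agents. The 7 neuroblastoma markers summed to 12112 to 12595.9 with both agents, against 14639.8 to 14776.8 with DMSO. The part of these shifts in the result was not tested. All treated arrays lay below both DMSO arrays for 51 genes with ATRA plus VPA at 72 h, as for 29.8% of all genes. The log2 3'/5' ratio was 1.36 ± 0.07 (SD, n = 3) with both agents and 1.06 ± 0.17 (n = 2) with DMSO, and 29 genes were lower with it as a covariate. After a second quantile normalization 19 were lower and 2 higher, COX7A2L by 0.21 and UQCR11 by 0.28. Without 1 of the DMSO arrays, 19 (without the first) or 16 (without the second) were lower. The calls with ATRA and with ATRA plus VPA at 72 h share their DMSO arrays: 26 genes were lower in both, 15 passed only in the comparison of ATRA with DMSO, and 4 only in that of ATRA plus VPA with DMSO. In the test of ATRA plus VPA against ATRA itself, 3 of these 15 (NDUFA10, NDUFA3 and NDUFA7) and 0 of these 4 differed. Of the 3980 brightest genes, 44.2% were lower with ATRA and 35.1% with both agents. The split over those genes is not given, so 26, 15 and 4 are not shown to be particular to these genes.

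At 24 h, ATRA plus VPA lowered 7 genes and raised 3, against 7.79% and 13.5% of all genes. SDHD again fell most, with 294.7, 353.4 and 367.8 in treated cells and 411.6, 520.4 and 581.5 in DMSO cells (-0.57 ± 0.11, adjusted p = 0.00019), without overlap. CYC1 fell by 0.47 ± 0.16 (adjusted p = 0.034), ATP5IF1 by 0.31 ± 0.08 (adjusted p = 0.0027) and NDUFA6 by 0.26 ± 0.08 (adjusted p = 0.014). The genes that rose were UQCR11 (0.33 ± 0.09, adjusted p = 0.0047), NDUFA3 (0.30 ± 0.09, adjusted p = 0.013) and NDUFA2 (0.21 ± 0.07, adjusted p = 0.033). UQCR11 had 4534.0, 4284.0 and 3985.6 with both agents, against 3435.6, 3129.7 and 3601.5 with DMSO, and did not overlap. The mean of the probe sets of NDUFA2 went the other way (-0.08), so its direction is not settled. Its other probe set lay near background, with a mean intensity of 24.3. Without DMSO 24 h replicate 1, NDUFA3 (adjusted p = 0.081), NDUFA2 (0.22) and NDUFA6 (0.056) no longer passed.

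At 6 h little had changed. ATRA gave 0 calls among the 72 genes, against 0.586% of all genes lower and 1.03% higher, and 0 reached an unadjusted p under 0.05 by limma. VPA gave 0 calls, against 4.70% lower and 6.46% higher. At an unadjusted p under 0.05 by limma it gave 5, with no share of all genes at that threshold beside it. ATRA plus VPA lowered 2 and raised 0, against 4.87% and 6.73%. These were SDHD, with 386.7, 360.4 and 393.1 in treated cells and 464.5, 478.2 and 530.0 in DMSO cells (-0.37 ± 0.11, adjusted p = 0.019), and the pseudogene ATP5MC2P1, which lies at background. Without DMSO 6 h replicate 3, ATRA plus VPA gave 0 calls at 6 h. SDHD was called lower in 5 of the 9 comparisons with DMSO, and ATP5IF1 in 4, while 23 genes were called in none. Comparisons at the same time share their DMSO arrays, and the share of all genes called as often is not given.

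Adding VPA to ATRA was set against ATRA alone. At 72 h, 11 genes were higher and 0 lower with both agents, against 14.6% and 6.20% of all genes and 23.8% higher among the 3980 brightest. Of the 11, 8 were among the 41, which were called with the same ATRA arrays. The count of 11 ran from 4 (without ATRA plus VPA replicate 3) to 14 (without ATRA replicate 3) with 1 array left out. It was 3 when fitted on only the arrays compared. NDUFA10 had 674.4, 845.7 and 871.0 with both agents, against 525.7, 552.1 and 578.1 with ATRA, and was higher by 0.52 ± 0.13 without overlap (adjusted p = 0.0037). ATP5MC1 was higher by 0.42 ± 0.11 (adjusted p = 0.0062) and NDUFA3 by 0.40 ± 0.09 (adjusted p = 0.0012). CYC1 and SDHD had 305.7 to 374.3 and 225.7 to 275.9 with both agents, against 259.7 to 407.3 and 227.8 to 258.2 with ATRA, and these ranges overlapped. The log2 3'/5' ratio was 1.36 ± 0.07 with both agents and 1.82 ± 0.17 with ATRA, and 7 genes were higher with it as a covariate. At 24 h, 2 genes were higher (NDUFA3 by 0.29, ATP5PF by 0.18) and 1 lower (NDUFA9, -0.26), against 4.86% and 4.63% of all genes.

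Adding ATRA to VPA lowered 16 genes and raised 0 at 72 h, against 13.4% and 12.3% of all genes and 27.5% lower among the 3980 brightest. CYC1 had 305.7, 349.1 and 374.3 with both agents, against 513.4, 537.9 and 601.5 with VPA, and was lower by -0.68 ± 0.16 (adjusted p = 0.0014). ATP5MC1 was at -0.67 ± 0.11 (adjusted p = 1.8e-05) and SDHD at -0.59 ± 0.11 (adjusted p = 6.9e-05). None of these 3 overlapped. By complex the 16 were 3 of complex I, 2 of complex II, 2 of complex III, 0 of complex IV and 9 of complex V. The count was 6 without ATRA plus VPA replicate 3, 8 without VPA replicate 2, 9 without VPA replicate 3 or ATRA plus VPA replicate 1, and 5 when fitted on only the arrays compared. CYC1, ATP5MC1 and SDHD passed without any 1 array. At 24 h, 4 were lower (ATP5MC1, SDHD, ATP5IF1 and NDUFA6, -0.39 to -0.24) and 2 higher (ATP5MC2 and ATP5MC2P1), against 6.74% and 5.13% of all genes.

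The interaction term asks whether the change with both agents differs from the sum of the single changes. At 72 h, 1 of 72 genes passed above 0 and 0 below, against 1.31% and 0.611% of all genes. Of the 72 terms, 59 were above 0, but bright genes in general leaned the same way. The median term was 0.145 over the 3980 brightest genes and 0.03 over all genes. UQCR10, lowered by each agent alone, had a term of 0.59 ± 0.13 (adjusted p = 0.017): its fall with both agents, 0.51, was smaller than the sum of the single falls. It had 2052.9, 2283.4 and 2328.7 with both agents, against 1963.8, 1743.3 and 1969.8 with ATRA, 2533.8, 2330.0 and 2576.5 with VPA and 3140.0 and 3197.0 with DMSO. All arrays with both agents lay above all ATRA arrays and below all VPA and DMSO arrays. UQCR10 lost its call without either DMSO array (adjusted p = 0.079 without the first and 0.099 without the second), VPA replicate 2 (0.056), ATRA replicate 2 (0.053) or ATRA plus VPA replicate 3 (0.052), with terms of 0.53 to 0.60. Leaving out any 1 array gave 0 to 4 calls. At 24 h limma called 0 genes after adjustment, against 0.662% of all genes lower and 0.0754% higher (0.737% in either direction). At an unadjusted p under 0.05 there were 3, a count with no share of all genes beside it.

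In DMSO itself some of these genes were called between times, in both directions. DMSO at 24 h had 6 of 72 genes higher and 5 lower than DMSO at 6 h, against 5.19% and 10% of all genes. Of the 3980 brightest genes, 9.42% were higher and 15.1% lower. NDUFA10 had 664.1, 964.9 and 982.1 at 24 h, against 1423.0, 1228.0 and 1298.3 at 6 h, without overlap (-0.62 ± 0.13, adjusted p = 0.0019). CYC1 had 455.1, 796.8 and 701.8 at 24 h, against 1009.2, 914.6 and 939.2 at 6 h (-0.59 ± 0.16, adjusted p = 0.013), without overlap. NDUFB8 rose by 0.37 ± 0.10 (adjusted p = 0.0093), though another of its probe sets went the other way. The log2 3'/5' ratio was 1.05 ± 0.26 at 24 h and 0.27 ± 0.09 at 6 h (SD, n = 3 each), 0 genes were called once it was a covariate, and without DMSO 24 h replicate 1 only NDUFA10 was. DMSO at 72 h had 2 genes higher (NDUFB8 by 0.41, NDUFS8 by 0.35) and 1 lower (NDUFS1, -0.38) than DMSO at 6 h, against 5.08% and 5.50% of all genes.

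Other genes of mitochondrial function were taken from lists drawn up with earlier results known. Higher with ATRA at 72 h were 10.7% of all genes and 10.4% of the 3980 brightest. With ATRA at 72 h, when 20.2% of all genes and 44.2% of the 3980 brightest were lower, 40 of 52 genes of the mitochondrial ribosome were lower and 0 higher, 13 of 18 of the citric acid cycle, 14 of 23 of protein import, 15 of 26 assembly factors of the complexes and 6 of 8 of cytochrome c and carriers, each with 0 higher. MRPL11, of the ribosome's large subunit, fell by 1.09 ± 0.12 (adjusted p = 1.8e-08), PC (pyruvate carboxylase) by 1.49 ± 0.20 (adjusted p = 8.8e-07) and TOMM22, an import receptor, by 1.23 ± 0.24 (adjusted p = 0.00016). VDAC3, a pore of the outer membrane, fell by 1.09 ± 0.16 (adjusted p = 6.1e-06), and COX11, which delivers copper to complex IV, by 0.73 ± 0.11 (adjusted p = 4.6e-06). With ATRA plus VPA, when 16.6% of all genes and 35.1% of the 3980 brightest were lower, 36 of 52, 12 of 18, 15 of 23, 11 of 26 and 7 of 8 genes of these lists were lower, with 1 assembly factor higher. The share of assembly factors (57.7% with ATRA, 42.3% with both agents) was near that of the bright genes.

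Regulators of mitochondrial biogenesis were mixed, with 10 of 20 lower and 2 higher with ATRA at 72 h. These shares were near those of the 3980 brightest genes, 44.2% lower and 10.4% higher. Of all genes, 20.2% were lower and 10.7% higher. TFAM, which packages and transcribes mitochondrial DNA, fell by 0.95 ± 0.13 with ATRA (adjusted p = 1.6e-06) and by 1.17 ± 0.13 with both agents (adjusted p = 2.4e-08). GABPA, the DNA-binding subunit of GABP, fell by 0.99 ± 0.29 (adjusted p = 0.0083) and 0.90 ± 0.29 (adjusted p = 0.015). NRF1 was at -0.08 (adjusted p = 0.70) and -0.14 (adjusted p = 0.55), and PPARGC1A, a coactivator of mitochondrial biogenesis, at 0.32 (adjusted p = 0.15) and -0.03 (adjusted p = 0.94).

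Genes of glycolysis, the other main route to ATP, fell more often than they rose. With ATRA at 72 h, 14 of 23 fell (60.9%, against 44.2% of the 3980 brightest genes) and 1 rose, and with both agents 11 fell (47.8%, against 35.1%) and 2 rose. ALDOC (aldolase C) fell by 1.26 ± 0.16 with ATRA (adjusted p = 6.2e-07) and HK2 (hexokinase 2) by 0.94 ± 0.15 (adjusted p = 1.2e-05). SLC2A3, the neuronal glucose transporter GLUT3, rose by 1.33 ± 0.25 with ATRA (adjusted p = 0.00013) and 1.72 ± 0.25 with both agents (adjusted p = 2.6e-06). Of 12 genes of mitochondrial shape and turnover, 6 fell with ATRA and 1 rose: PINK1, a kinase that marks damaged mitochondria, by 0.52 ± 0.13 (adjusted p = 0.0030). With ATRA, 44.2% of the 3980 brightest genes fell and 10.4% rose.

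**Figure D5:**
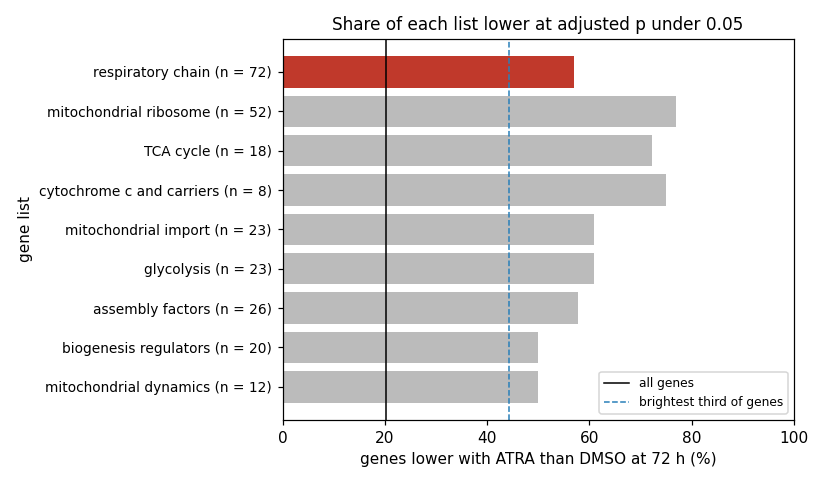
Percent of the genes of each list lower with ATRA than with DMSO at 72 h (adjusted p under 0.05), with lines at the shares of all genes (20.2%) and of the 3980 brightest (44.2%). The respiratory chain stands at 56.9%, between 76.9% for the mitochondrial ribosome and 50% for biogenesis regulators and for genes of mitochondrial dynamics.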

How the data were processed

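RNA from BE(2)-C cells was hybridised to Affymetrix high-throughput human arrays of an early design, 35 in 12 groups. The authors' deposited values are linear intensities per probe set, made with RMA per the submitters' processing notes (version not given in the sources used here); RMA sets arrays to a common distribution, so levels are relative. The platform annotation gave 1 symbol to 19415 of 22930 probe sets, several to 125 and none to 3292. The brightest probe set stood for each of 11940 genes, and symbols were updated by gene ID (all 72 matched). Here log2(intensity + 1) was fitted with limma 3.58.1 in R 4.3.3 (lmFit, eBayes), 1 mean per group over all arrays, with 20 contrasts and Benjamini-Hochberg adjustment over all genes at 0.05. Fold changes are on that scale. The fit was tested on simulated data. Motif windows came from RefSeq (GRCh38.p14).

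The members and lists were chosen with earlier results of these data known. Named were the 4 largest rises and falls past the threshold per treatment, the 3 largest elsewhere, the brightest and dimmest gene per complex, isoforms, genes called in at least 4 of 9 comparisons and the 4 largest changes per list; further genes were named for their role after their values were seen. Replicate numbers were checked as pairs: the correlations of same-numbered arrays ran from -0.3 to 0.31 and in no comparison were all over 0.1. Precision is limited by 3 arrays per group, and 2 for DMSO at 72 h.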

Additional observations from a re-analysis of the deposited data

Results flagged for a closer look

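Several differences between effects passed the test of the difference itself. UQCR10 had an ATRA by VPA interaction of 0.59 ± 0.13 at 72 h (limma, adjusted p = 0.017), with all arrays given both agents between those given ATRA and those given VPA. The call was lost without any 1 of 5 arrays (adjusted p = 0.052 to 0.099), both DMSO arrays among them. The ATRA effect at 72 h minus that at 24 h was -1.05 ± 0.19 for NDUFA10 (adjusted p = 0.00057), -0.93 ± 0.24 for CYC1 (adjusted p = 0.0083) and -0.77 ± 0.16 for ATP5MC1 (adjusted p = 0.0022). DMSO 24 h replicate 1 was the lowest of its group for all 3 of these genes. The effect of ATRA plus VPA at 72 h minus that at 24 h was -0.53 ± 0.16 for ATP5MC1 (adjusted p = 0.044), -0.48 ± 0.11 for NDUFS5 (adjusted p = 0.0060) and -0.48 ± 0.10 for ATP5MC3 (adjusted p = 0.0016). NDUFS5 and ATP5MC3 passed without any 1 array, whereas ATP5MC1 did not without DMSO 24 h replicate 1 (-0.36, adjusted p = 0.15) or without either DMSO array at 72 h (adjusted p = 0.10 and 0.18).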

How the results depend on the processing

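Counts of called genes out of 72 kept their direction and lay within 1.5 times the reported count in 228 of 362 repeats, and named genes kept their call in 773 of 939. For ATRA against DMSO at 72 h the count was 41, against 22 after a second quantile normalization (19 lower, 3 higher) and 26 with only the arrays compared; the falls of CYC1, ATP5MC1, SDHD, NDUFA10 and UQCR10 stood in both scalings. With a pseudocount of 32 the count was 1 for VPA at 6 h, 5 for VPA at 24 h, 3 for VPA at 72 h, 5 and 17 for ATRA plus VPA against ATRA at 24 and 72 h, 7 for the 72 h interaction and 14 for the later effect (72 h minus 24 h) of both agents. Without the dimmest 33.3% of genes it was 1, 1 and 5 for VPA and both agents at 6 h and VPA at 24 h, 2 for the 72 h interaction and 10 for the later effect of both agents. The mean of all probe sets gave 1 for VPA at 6 h and 1 for DMSO at 72 h against 6 h, and probe sets without _x_at or _s_at gave 1 for VPA at 6 h. The second quantile normalization gave 2, 4 and 2 for VPA at 6, 24 and 72 h, 10 for ATRA at 24 h, 11 for ATRA plus VPA against ATRA at 24 h, 11 for DMSO at 72 h against 6 h and 10 for the later effect of ATRA. Array weights gave 2, 13 and 9 for VPA at 6, 24 and 72 h, 6 and 18 for both agents at 6 and 24 h, 14 for ATRA at 24 h, 16 and 12 for both agents against ATRA and against VPA at 24 h, 2 and 11 for the interaction at 24 and 72 h, 18 and 15 for DMSO at 24 and 72 h against 6 h and 22 for the later effect of both agents. The 3'/5' ratio as a covariate gave 1 and 3 for VPA at 6 and 72 h, 3 for both agents against VPA at 24 h, 7 for both agents against ATRA at 72 h, 0 and 1 for DMSO at 24 and 72 h against 6 h and 10 for the later effect of ATRA. An intensity trend with a robust prior gave 6 and 3 for VPA at 24 and 72 h, 5 for both agents against ATRA at 24 h, 8 for the 72 h interaction, 6 for DMSO at 72 h against 6 h and 13 for the later effect of both agents. Fitted on only the arrays compared, with fewer degrees of freedom, the count was 1 for VPA and for both agents at 6 h, 0 for each treatment at 24 h, 2 for VPA at 72 h, 0 for both agents against each single agent at 24 h, 3 and 5 for both agents against ATRA and against VPA at 72 h, 0 and 6 for DMSO at 24 and 72 h against 6 h, and 1 and 0 for the later effects of ATRA and of both agents. Leaving out DMSO 24 h replicate 1 and ATRA plus VPA 6 h replicate 1 together, an alternative chosen after seeing the data, gave 1, 6 and 3 for VPA at 6, 24 and 72 h, 1 for both agents at 6 h, 7 for the 72 h interaction, 1 and 6 for DMSO at 24 and 72 h against 6 h and 15 for the later effect of ATRA. With the replicate block the count was 40 for ATRA at 72 h, all among the 41, 31 for both agents, 2 for VPA at 72 h and 2 for the 72 h interaction; the numbers were not shown to pair the arrays. Leaving out 1 array at a time gave 0 to 0, 3 to 6 and 27 to 44 for ATRA at 6, 24 and 72 h, 0 to 1, 1 to 5 and 0 to 1 for VPA, and 0 to 2, 6 to 8 and 16 to 25 for both agents. It gave 0 to 2 and 4 to 14 for both agents against ATRA at 24 and 72 h, 2 to 7 and 6 to 14 against VPA, 0 to 0 and 0 to 4 for the interaction, 1 to 16 and 1 to 3 for DMSO at 24 and 72 h against 6 h, and 11 to 31, 0 to 0 and 2 to 14 for the later effects of ATRA, VPA and both agents. Directions turned only with the choice of probe set: ATP5F1C with ATRA at 24 h (0.24 without _x_at or _s_at), NDUFA2 with both agents at 24 h (-0.08 with the mean, -0.37 without such probe sets), NDUFB8 at 24 h (-0.11 and -0.24) and 72 h (-0.09 without them) in DMSO, SDHC (-0.22 with the mean) and ATP5MC2 (0.06 without them) in DMSO at 24 h. The cause was not tested. Among the brightest probe sets per gene, signal over background limits only those of COX7A1, COX6A2 and ATP5MC2P1. Other probe sets can be dim. Those behind the turns of NDUFA2 and ATP5MC2 had mean intensities of 24.3 and 17.3, near or at background.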
